A study of Mus musculus with 12 samples.

Results

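The genes described here are 10 immediate early genes of the mouse hypothalamus: Fos, Fosb, Junb, Egr1, Egr2, Npas4, Nr4a1, Arc, Ier2 and Dusp1. They were chosen by symbol, and every array probe that carried one of these symbols was taken. That gave 12 of the 41174 probes of the array, which carry 28307 gene symbols in all. Junb and Ier2 had 2 probes each and the other members had 1. Each gene is described from its probe of highest mean signal. The second Ier2 probe never rose well above background and was not tested.

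RNA came from the hypothalamus of male ICR mice (an outbred stock) that were 3 weeks old when the experiment began. Mice in the alcohol cages chose freely between a tube of water and a tube with 5% or 10% alcohol, and mice of the water group had water in both tubes. The first 5 days were an adaptation with water alone. The labels place the death of the mice on day 51, while the text for the whole series lets drinking last to day 57. The labels sort the 9 alcohol arrays into a low alcohol drinker, an early alcohol drinker and a late alcohol drinker group of 3 arrays each, the last 2 being high drinkers that differed in when their intake was high. They are called low, early and late drinkers below, and the water group had 3 arrays. Each array carried a pool of RNA, from 3 mice in the water group and from 1 to 3 mice in the alcohol groups, so that the spread between arrays is a spread between pools. The study lists the alcohol pools by the concentration they drank, but under names that the labels do not tie to these arrays. In that list each pool of less intake held 3 mice and each pool of more intake 1 or 2. Pool size thus went with intake, and its part in the spread between arrays was not tested. All mice shared the strain, sex and tissue. The 12 arrays lay on 3 slides. Slide 1 carried the 3 water pools and low pool 1, slide 2 carried low pools 2 and 3 with early pools 1 and 2, and slide 3 carried early pool 3 with the 3 late pools. Neither early nor late drinkers shared a slide with water mice. A fit with slide as a block therefore compares with water low pool 1 alone, the other 8 alcohol pools having no water pool on their slide. For early drinkers it adds to this the early minus low difference within slide 2, and for late drinkers also the late minus early difference within slide 3, against early pool 3 alone. Slide 1 was scanned on one day and slides 2 and 3 on another.

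Immediate early genes are transcribed within minutes of a stimulus, without the need for new protein. In neurons, calcium entry and growth factor signals act through kinases on factors that already sit at the promoter, such as CREB at cAMP response elements and serum response factor at CArG boxes. The messages are short-lived, so a level read from frozen tissue reflects the last period before death. In the hypothalamus these genes are widely used as marks of cells that were recently active, after stress, feeding, osmotic challenge or handling. Members differ in what they make: Fos, Fosb and Junb encode subunits of the AP-1 transcription factor, Egr1 and Egr2 are zinc finger factors, Nr4a1 is an orphan nuclear receptor, Npas4 is a factor of neurons that answers mainly to calcium, Arc is a synaptic protein, Ier2 is a nuclear protein and Dusp1 is a phosphatase that switches MAP kinases off.

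Values are scaled log2 signals: the log2 of the background-corrected spot signal minus the 75th percentile of the same array, so that 0 is the 75th percentile and a step of 1 is a doubling. Signals were not compared between probes. Spots well above background made up 67.0% to 79.3% of an array, and 0 were saturated. The used probes were well above background on 12 of 12 arrays, except that of Egr2, which was on 11. The number of arrays, 3 in a group, limits the precision of every value. Of the 12 hypothalamic marker genes looked for, 11 were matched, and their summed signal was between 161 and 218 times the 75th percentile of the array.

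Alcohol and water arrays overlapped for every member. With limma, 0 of the 10 members passed an adjusted p of 0.05, where 0% of 32376 probes did, and 0 passed an unadjusted p of 0.05, where 5.53% of probes did. The groups were apart for 0 members, against 1.31% of probes measured on all 12 arrays. The differences, alcohol minus water, ran from -0.59 for Npas4 to 0.10 for Egr2 on the log2 scale, with a median of 0.04 against 0.03 over all probes. The smallest adjusted p among the members was 0.820 (limma). For Fos the difference was 0.01 with a standard error of 0.45. The comparisons with water that follow share the 3 water arrays. Taken by intake group, 0 of 10 members passed the adjusted threshold in low minus water, where 0.179% of probes did, in early minus water (0%) or in late minus water (0%). At an unadjusted p of 0.05 the counts were 0 members for low (9.15% of probes), 0 for early (4.8%) and 1, Npas4, for late drinkers (15.7%). Directions turned with slide as a block. Low pool 1, the sole alcohol pool then set against water, was above the water mean for 2 of 10 members. Members with a difference above 0 numbered 1 in place of 3 for early and 0 in place of 8 for late drinkers, values that both contain low pool 1. The median over all probes was then -0.07 for early and -0.09 for late drinkers, against -0.34 and -0.49 over the members. The Fos difference was -0.92 for low pool 1, went from -0.08 to -1.54 for early and from 0.37 to -2.04 for late drinkers, and that of Egr1 went from 0.05 to -0.80 and of Nr4a1 from 0.19 to -0.59 for late drinkers. In that fit 0 members passed after adjustment. Before it Ier2 passed for early (-0.32, limma adjusted p = 0.640) and late drinkers (-0.39, limma adjusted p = 0.598), and Npas4 did not. Of all probes, 2297 of 32398 passed before adjustment for early and 2557 of 32491 for late drinkers.

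**Figure D1:**
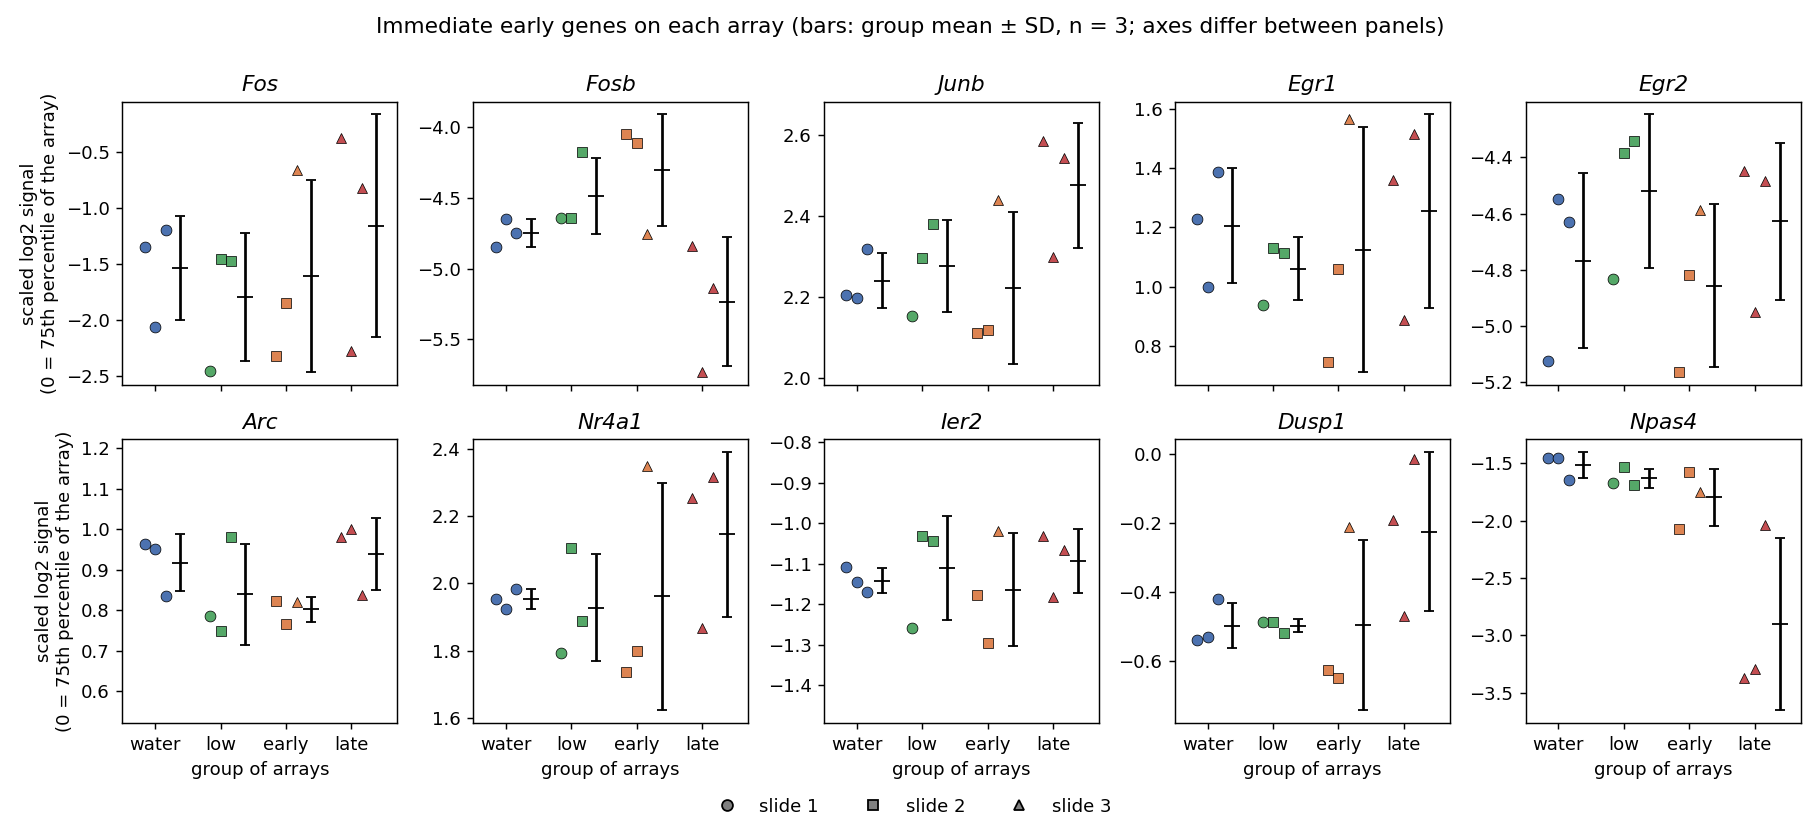
Scaled log2 signal (0 is the 75th percentile of the array) of the 10 members on each of the 12 arrays, by group, with the marker shape giving the slide and black bars the group mean ± SD (n = 3). Fos runs from -2.46 to -0.38, with early pool 3, late pool 1 and late pool 3 highest, and Npas4 is lowest on late pools 1 and 2, at -3.38 and -3.29.

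Fos, the founding member of the class, had scaled log2 signals of -1.35, -2.06 and -1.20 in water pools 1 to 3. They were -2.46, -1.46 and -1.48 in the low pools, -2.32, -1.85 and -0.66 in the early pools and -0.38, -2.28 and -0.82 in the late pools. The groups overlapped throughout: low pool 1 and early pool 1 were lowest, late pool 1 was highest, and late pool 2 lay with the lowest arrays although it shared a slide with the highest. Group means were -1.54 ± 0.46 for water, -1.80 ± 0.57 for low, -1.61 ± 0.86 for early and -1.16 ± 1.00 for late drinkers (SD, n = 3). Differences from water were -0.26, -0.08 and 0.37, each smaller than its standard error of 0.56. In the plot of values by array the late and early groups each spread over most of the whole range of Fos. The probe lies on chromosome 12 of mm9 (86817900 to 86817959).

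Junb, an AP-1 partner of Fos, spanned 1.39-fold over the 12 arrays. Its scaled log2 signals were 2.21, 2.20 and 2.32 in water, 2.15, 2.30 and 2.38 in low, 2.11, 2.12 and 2.44 in early and 2.59, 2.30 and 2.54 in late pools. Late pools 1 and 3 lay highest, while late pool 2 was below water pool 3, low pool 3 and early pool 3. The late minus early difference was 0.25 (SE 0.11), with an unadjusted p of 0.0465 and an adjusted p of 0.404 (limma). The second Junb probe followed the first over the 12 arrays with r = 0.91, and read 1.83 to 2.21. Within slide 3 the late pools averaged 0.04 above early pool 3.

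Fosb, which encodes the AP-1 subunit whose truncated form builds up with repeated stimulation in neurons, spanned 3.22-fold. Scaled log2 signals were -4.85, -4.65 and -4.75 in water, -4.64, -4.64 and -4.18 in low, -4.05, -4.11 and -4.76 in early and -4.84, -5.73 and -5.14 in late pools. The 3 late pools were below the 3 early pools without overlap, as 21.5% of all probes were one way or the other in that comparison. The late minus early difference was -0.93 (SE 0.25), a 1.91-fold lower signal, with an unadjusted p of 0.00432 and an adjusted p of 0.324 (limma), and the exact permutation p was 0.1, the smallest that 3 against 3 arrays can give. The probe was dim, with background-corrected signals from 34.4 (late pool 2) to 94.4 (early pool 2), where array medians were 202 to 254. Within slide 3 the difference was -0.48, against the single early pool there. Over all pools its size depended on the background correction, and it was -0.57 under normexp. With quantile normalization the unadjusted p was above 0.05 and the adjusted p was 0.507 (limma). The probe lies on chromosome 7 of mm9 (19888477 to 19888536), and which Fosb transcripts it detects was not examined. The Fosb values also moved with the overall brightness of the arrays (r = -0.74 with the 75th percentile of the signal, permutation p = 0.00344, adjusted p = 0.0485 over 20 such relations, rho = -0.77 with permutation p = 0.00515), and the part of brightness in the late minus early difference was not tested.

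Egr1, a zinc finger factor often read beside Fos, had scaled log2 signals of 1.23, 1.00 and 1.39 in water, 0.94, 1.13 and 1.11 in low, 0.75, 1.06 and 1.57 in early and 1.36, 0.89 and 1.52 in late pools. Early pool 1 was lowest and early pool 3 highest, so that the early group spanned the whole range and no group stood apart. Differences from water were -0.15 for low, -0.08 for early and 0.05 for late drinkers, with standard errors of 0.22. Egr2, which belongs to the same family, ranged from -5.16 (early pool 1) to -4.34 (low pool 3). Its means were -4.77 ± 0.31 for water, -4.52 ± 0.27 for low, -4.86 ± 0.29 for early and -4.63 ± 0.28 for late drinkers (SD, n = 3), which overlapped.

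Nr4a1, the orphan receptor also called Nur77, kept close in water and low pools and parted within the high drinkers. Scaled log2 signals were 1.95, 1.92 and 1.98 in water, 1.79, 2.10 and 1.89 in low, 1.74, 1.80 and 2.35 in early and 2.25, 1.87 and 2.32 in late pools. Early pool 3 and late pools 1 and 3 were above every other array, and early pools 1 and 2 were among the lowest. The late minus water difference was 0.19 (SE 0.17, limma adjusted p = 0.636).

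Dusp1, the phosphatase that ends MAP kinase signalling, had the same 3 arrays on top. Its scaled log2 signals were -0.54, -0.53 and -0.42 in water, -0.48, -0.49 and -0.52 in low, -0.63, -0.65 and -0.21 in early and -0.19, -0.47 and -0.01 in late pools. The late pools were all above the water mean, but late pool 2 lay below water pool 3. The late minus water difference was 0.27 (SE 0.13, limma adjusted p = 0.365), and it was 0.17 with late pool 3 left out, the lowest of the values with 1 array left out. With slide as a block its sign turned, to -0.14. The Dusp1 values went with the brightness of the arrays as well (r = 0.73 with the 75th percentile, permutation p = 0.00485, adjusted p = 0.0485; rho = 0.83, permutation p = 0.00143), whose part in this difference was not tested.

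Arc and Ier2 were the steadiest members. Arc, whose message travels to dendrites, ranged from 0.75 (low pool 2) to 1.00 (late pool 2), a 1.19-fold span. The 3 early pools, 0.82, 0.77 and 0.82, were below the 3 water pools, 0.96, 0.95 and 0.84, without overlap, where 16.4% of all probes had these groups apart. They were also below the 3 late pools, 0.98, 1.00 and 0.84, and the low pools were at 0.79, 0.75 and 0.98. The early minus water difference was -0.11 (SE 0.08, limma adjusted p = 0.886). Ier2 ranged from -1.30 (early pool 2) to -1.02 (early pool 3), a 1.21-fold span that lay inside 1 group. Over the 12 arrays the SD of either gene was 0.09, which placed Arc at percentile 27.6 and Ier2 at 27.3 of the 26031 probes that were well above background on every array.

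Npas4, the neuronal calcium-responsive factor, was the member farthest from water in late drinkers, except with slide as a block, where Fos was farther. Its scaled log2 signals were -1.45, -1.45 and -1.65 in water, -1.68, -1.54 and -1.69 in low, -2.07, -1.58 and -1.75 in early and -3.38, -3.29 and -2.04 in late pools. Late pools 1 and 2 lay far below all other arrays, late pool 3 was level with early pool 1, and all 9 alcohol pools were below the water mean. Late minus water was -1.38 (SE 0.30), a 2.61-fold lower signal, with an unadjusted p of 0.00105 and an adjusted p of 0.114 (limma). With slide as a block it was -1.52, with an unadjusted p of 0.0864 and an adjusted p of 0.673 (limma). The late and water groups did not overlap, as was so for 26% of all probes, and the exact permutation p was 0.1, the smallest possible. Late minus early was -1.10 (SE 0.30, adjusted p = 0.324) and high minus low, with early and late drinkers together, -0.72 (SE 0.26, adjusted p = 0.252), both by limma. These results rested on the place of late pool 3: without it the adjusted p was 0.000717 for late minus water (-1.82), 0.00267 for late minus early (-1.53) and 0.0158 for high minus low (-0.93), while leaving out any other array kept each of them above 0.05. Npas4 was 1 of many probes gained in this way, as the share of all probes called without late pool 3 was 1.24% in late minus water, 0.312% in late minus early and 0.493% in high minus low. Over all alcohol pools the difference was -0.59 (SE 0.40, limma adjusted p = 0.820, exact permutation p = 0.0682 over 220 ways). The 9 pools were below the water mean, but low pool 2 and early pool 2 were above water pool 3. Within slide 1 the difference of low pool 1 from the water mean was -0.16, which was also the alcohol minus water value with slide as a block. The other 8 alcohol pools could not be set against water on their own slide.

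The low Npas4 signal of late pools 1 and 2 had parallels in other probes. Of 26031 probes well above background on every array, 2690, or 10.3%, had late pools 1 and 2 below the other 10 arrays, and 1779, or 6.83%, had them above. The gap was over 1 on the log2 scale for 22 probes below and 0 above, and Npas4, with a gap of 1.22, was among the 22. Tmem14c (1.95) and Metrn (1.64) were among the others with the widest gaps, and they were named after their values were seen. Over the 12 arrays, 5.04% of these probes had an r with Npas4 beyond 0.8 in size, against 0.146% to 0.887% for the other members. The probe of Npas4 lies on chromosome 19 of mm9 (4984833 to 4984892). The part of this wider pattern, and of slide 3, in the Npas4 difference was not tested. Within slide 3 the late pools averaged 1.15 below early pool 3, and each was below it.

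**Figure D2:**
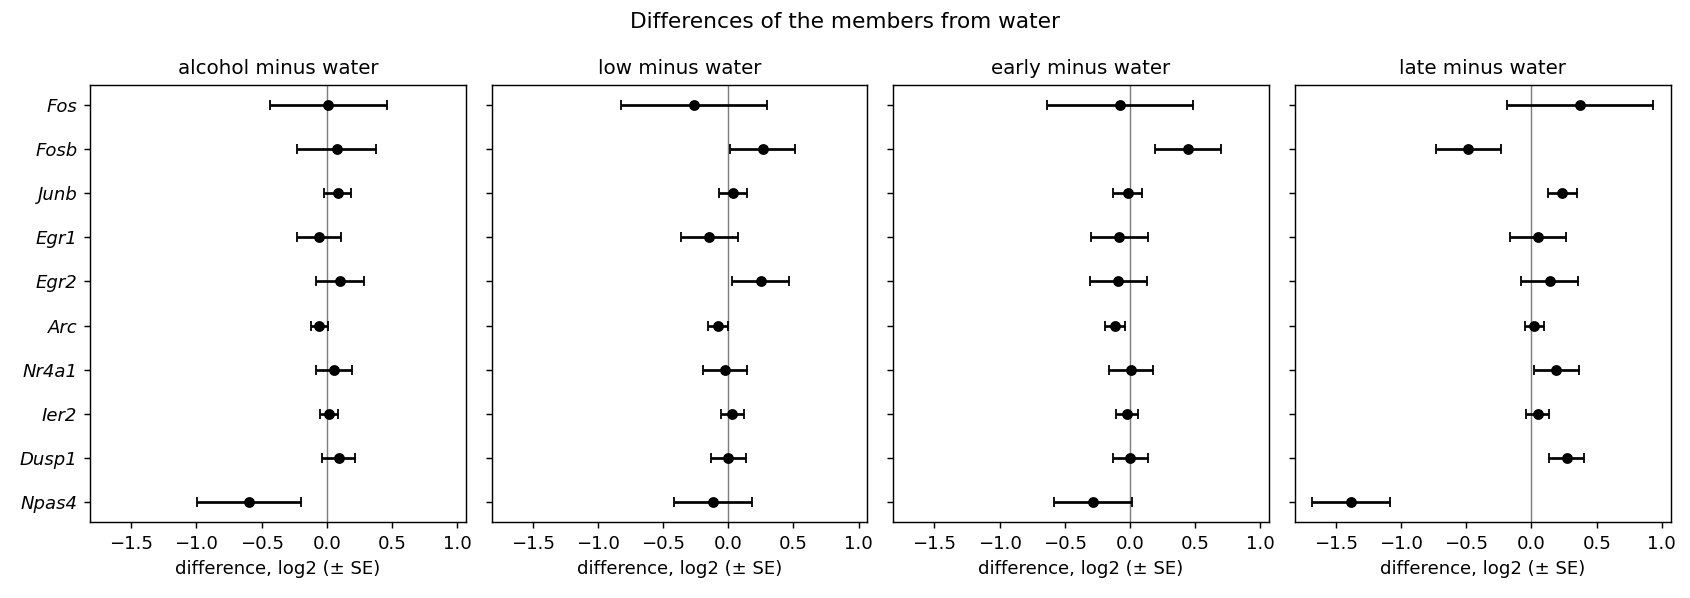
Difference of each member from water on the log2 scale (points, with bars of ± 1 standard error from limma) for all alcohol arrays and for low, early and late drinkers. Npas4 in late drinkers, at -1.38, is the farthest from 0, and most other bars cross or touch 0.

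Within the alcohol groups, 1 of 10 members passed an unadjusted p of 0.05 in high minus low (Npas4), where 15.5% of probes did, and 3 passed in late minus early (Npas4, Fosb and Junb), where 12.1% did. With slide as a block Npas4 no longer passed in high minus low (unadjusted p = 0.133, limma adjusted p = 0.496). Ier2 (-0.24, limma adjusted p = 0.290) and Egr2 (-0.65, limma adjusted p = 0.333) did, as did 4642 of 32250 probes. Members above 0 numbered 1 in place of 6. After adjustment 0 members passed in either comparison, against 0.0744% and 0% of probes. Groups did not overlap for 0 members in high minus low (4.62% of probes) and for 2, Fosb and Arc, in late minus early (21.5%). In low minus water 1 member, Fosb, had its groups apart, where 9.06% of probes did. The late minus early difference was above 0 for 8 of 10 members, with a median of 0.16 against -0.03 over all probes. With slide as a block it was above 0 for 2 of 10, Junb (0.04) and Arc (0.12), and the sign turned for Fos (0.45 to -0.50), Egr1 (0.13 to -0.31) and Nr4a1 (0.18 to -0.20). Among the members Npas4 alone stayed under an unadjusted p of 0.05 in that fit of late minus early (limma adjusted p = 0.881), where 1857 of 33141 probes did.

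The members differed widely in how much they varied from array to array. The SD of Fos over the 12 arrays was 0.69, where the median over the 26031 probes well above background was 0.13. Npas4 (0.67) and Fosb (0.46) followed, at the percentiles 98.9 and 95.7. After group means were taken out, the SD of Fos was 0.75, at percentile 99.5 of these probes, that of Npas4 was 0.40 and that of Fosb 0.33. The spread of Npas4 lay mainly in the late pools, with an SD of 0.75, against 0.11 in water, 0.08 in low and 0.25 in early pools (n = 3). Pools of high drinkers held fewer mice than the other pools, and the part of pool size in these spreads was not tested. The Fos probe was printed on 10 spots of each array, and the SD among these spots was 0.03 to 0.08, with a median of 0.07. For Egr2, also printed 10 times, the SD among spots had a median of 0.15 and a highest value of 0.78, against 0.28 between arrays.

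Several members were high and low on the same arrays. Of the 45 pairs, 13 had a Pearson r that passed an adjusted p of 0.05 over the 45 (permutation test, 2-sided, 100000 resamples), and 9 passed with Spearman's rho. Every one of the 13 lay among Fos, Junb, Egr1, Nr4a1, Ier2 and Dusp1. Fos and Egr1 were the closest pair (r = 0.92, permutation p = 6e-05, adjusted 0.00169; rho = 0.94, permutation p = 4e-05), with r = 0.97 once the 2 arrays farthest from the Fos median were left out. Nr4a1 and Dusp1 reached r = 0.90 (adjusted p = 0.00216, permutation; rho = 0.71), Junb and Dusp1 0.89, and Fos and Nr4a1 0.89 (rho = 0.92). For Nr4a1 and Dusp1, r was 0.83 without early pool 3 and late pool 3. The 10 pairs among Fos, Junb, Egr1, Nr4a1 and Dusp1, a set put together after the values were seen, had r between 0.76 and 0.92. With the 75th percentile of the signal, r was 0.50 for Fos, 0.59 for Junb, 0.61 for Egr1, 0.58 for Nr4a1 and 0.73 for Dusp1. It was 0.01 for Egr2 and 0.13 for Ier2. Of these Dusp1 alone passed an adjusted p of 0.05 (permutation), and the part of array brightness in the shared movement was not tested.

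Egr2 went with these genes less closely, with r between 0.49 (Dusp1) and 0.66 (Junb), none past the adjusted threshold. Fosb, Arc and Npas4 stood outside over the 12 arrays as they were. Their 21 pairs with the other 7 members had r from -0.50 (Fosb and Dusp1) to 0.30 (Arc and Junb), and 0 of 21 passed. With slide means taken out Npas4 stood closer to some of them, with r of 0.65 with Egr1, 0.62 with Nr4a1, 0.51 with Dusp1 and 0.37 with Fos. It had r of 0.30 with Ier2, 0.29 with Egr2 and 0.15 with Junb. None of the 7 had an unadjusted permutation p under 0.05. Fosb, though an AP-1 subunit like Fos, had r = -0.15 with it (permutation p = 0.639, adjusted p = 0.798; rho = -0.50, permutation p = 0.105). Fosb and Npas4 had r = 0.55 (permutation p = 0.0840, adjusted p = 0.181) and rho = 0.22, and 0.31 without early pool 1 and late pool 2.

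With slide means taken out, the 10 pairs among Fos, Junb, Egr1, Nr4a1 and Dusp1 had r between 0.68 and 0.92, and with group means taken out between 0.77 and 0.94. Over all 45 pairs, 3 passed an adjusted p of 0.05 with slide means out and 2 with group means out, with arrays exchanged within slides or groups. On slide 2, where only low and early pools lay, the 2 early pools were below the 2 low pools in 7 of 10 members (Fos, Junb, Egr1, Egr2, Nr4a1, Ier2 and Dusp1), as in 29.8% of all probes. On slide 1, low pool 1 was below the 3 water pools in 7 of 10 (Fos, Junb, Egr1, Nr4a1, Ier2, Arc and Npas4), as in 24.1% of all probes. Fosb went the other way on both slides, by 0.11 on slide 1 and 0.33 on slide 2. These members move together, so that the counts are not independent.

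**Figure D3:**
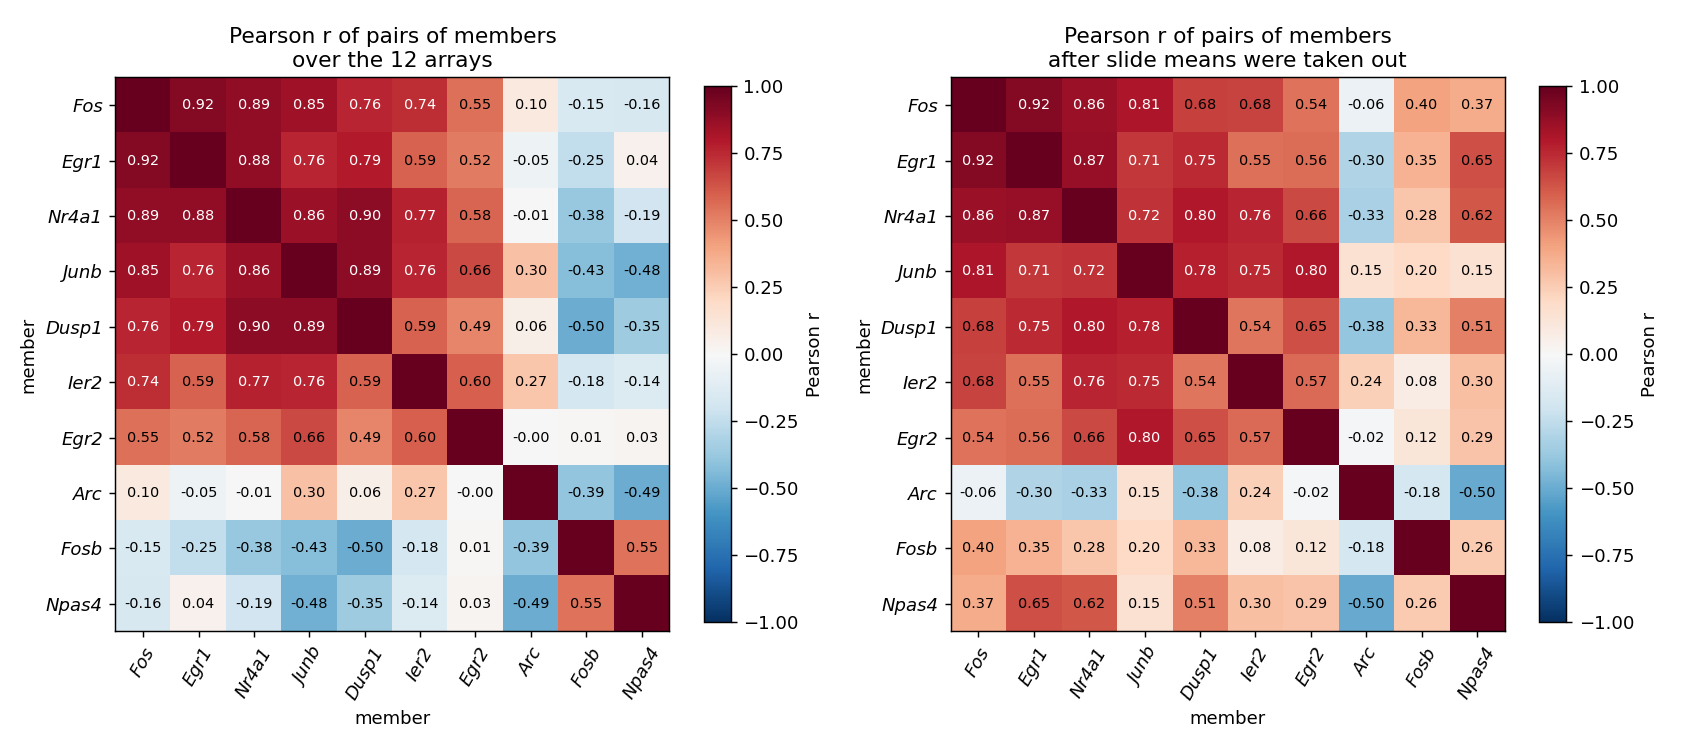
Pearson r of each pair of members over the 12 arrays (left) and after the mean of each slide was taken out (right), on a color scale from -1 to 1. Fos, Egr1, Nr4a1, Junb and Dusp1 form a block with r of 0.76 to 0.92 on the left, and Arc, Fosb and Npas4 lie outside it.

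Promoters of 7 of the 10 members were in the reference set of promoters used (RefSeq, GRCm38.p6), and that set held no entry for Egr1, Arc and Ier2. The 250 bases before the transcription start were searched on both strands for the cAMP response element TGACGTCA, its core TGACG, the AP-1 site TGAGTCA, the CArG box, TATAAA and the EGR sites GCGGGGGCG and GCGTGGGCG. The full element holds the core on both strands. The core was present in 7 of 7 members, with Egr2 counted over its 5 annotated starts, of which 3 held it, and in 17.8% of the 32851 promoters of the reference. The full element was found in Dusp1 alone, and in 1.55% of all promoters. A CArG box was found in Egr2 (1.47% of all promoters), TATAAA in Fos (12.4%), an EGR site in Fosb and Nr4a1 (3.06%) and an AP-1 site in none (4.46%). The windows of Fos, Nr4a1 and Dusp1, which moved together, and of Npas4, which did not over the 12 arrays as they were, are shown with each core, and the full element in Dusp1, in capitals, so that they can be read side by side. They are chr12:85473640-85473889 on the plus strand, chr15:101266596-101266845 on the plus strand, chr17:26508473-26508722 on the minus strand and chr19:4989972-4990221 on the minus strand.
Fos: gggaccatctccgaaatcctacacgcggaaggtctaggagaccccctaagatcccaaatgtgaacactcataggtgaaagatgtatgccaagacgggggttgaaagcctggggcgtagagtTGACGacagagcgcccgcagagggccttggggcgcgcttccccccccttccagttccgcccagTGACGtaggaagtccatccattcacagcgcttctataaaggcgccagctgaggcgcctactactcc
Nr4a1: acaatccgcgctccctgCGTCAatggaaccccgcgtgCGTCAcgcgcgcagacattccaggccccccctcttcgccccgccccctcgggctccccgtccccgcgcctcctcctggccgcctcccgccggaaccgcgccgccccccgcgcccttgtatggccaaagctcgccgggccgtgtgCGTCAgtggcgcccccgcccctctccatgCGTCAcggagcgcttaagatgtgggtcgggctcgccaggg
Dusp1: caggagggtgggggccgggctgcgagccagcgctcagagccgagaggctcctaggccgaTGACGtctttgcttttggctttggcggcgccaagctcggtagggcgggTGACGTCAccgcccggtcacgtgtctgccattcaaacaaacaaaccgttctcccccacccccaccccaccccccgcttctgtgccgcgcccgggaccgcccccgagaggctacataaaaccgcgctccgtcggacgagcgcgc
Npas4: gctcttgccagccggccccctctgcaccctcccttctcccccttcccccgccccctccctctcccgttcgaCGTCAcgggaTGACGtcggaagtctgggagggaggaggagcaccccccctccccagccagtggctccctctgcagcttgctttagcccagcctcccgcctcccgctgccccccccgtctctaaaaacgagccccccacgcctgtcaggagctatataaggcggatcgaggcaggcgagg

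The core stood 4 times in the Nr4a1 window and 2 times in that of Fos. The Npas4 window held 2 and the Dusp1 window 3, of which 2 lie within its full element. A match is a string of letters and does not show that a factor was bound.

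Markers of tissue next to the hypothalamus moved with some members. Of 8 thalamic markers, 8 were matched and 8 were well above background on every array. Prkcd, a kinase of thalamic relay neurons, ran from -1.24 (low pool 1) to 2.13 (late pool 3) on the scaled log2 scale, and Tnnt1 from -2.36 to 0.70 on the same 2 arrays. The summed thalamic signal was 28.6 to 31.5 times the 75th percentile in water pools, 26.1 to 36.9 in low, 25.6 to 37.2 in early and 28.8 to 43.8 in late pools. Over the 12 arrays the mean log2 signal of the list had r between 0.64 and 0.87 with Fos, Junb, Egr1, Egr2, Nr4a1, Ier2 and Dusp1, which were put together after their values were seen, and -0.30 with Fosb and 0.22 with Arc. In a family of 100 relations (10 members by 10 marker lists) 1 passed an adjusted p of 0.05, that of Ier2 (r = 0.87, permutation p = 0.00033, adjusted 0.0330; rho = 0.86, permutation p = 0.00065), and r was 0.76 without the 2 arrays farthest from the Ier2 median. For Junb r was 0.78 (permutation p = 0.00345, adjusted 0.0942; rho = 0.77, permutation p = 0.00504) and for Fos 0.65 (permutation p = 0.0231, adjusted 0.210; rho = 0.62, permutation p = 0.0372). For Npas4 it was -0.05 (permutation p = 0.884, adjusted 0.950; rho = -0.15, permutation p = 0.638). With slide means taken out r was 0.54 for Npas4, and 0.54 to 0.83 for the 7 members named above. The part of thalamic tissue in the shared movement of the members was not tested, and in whole tissue fewer cells of a kind and less RNA per cell cannot be told apart.

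**Figure D4:**
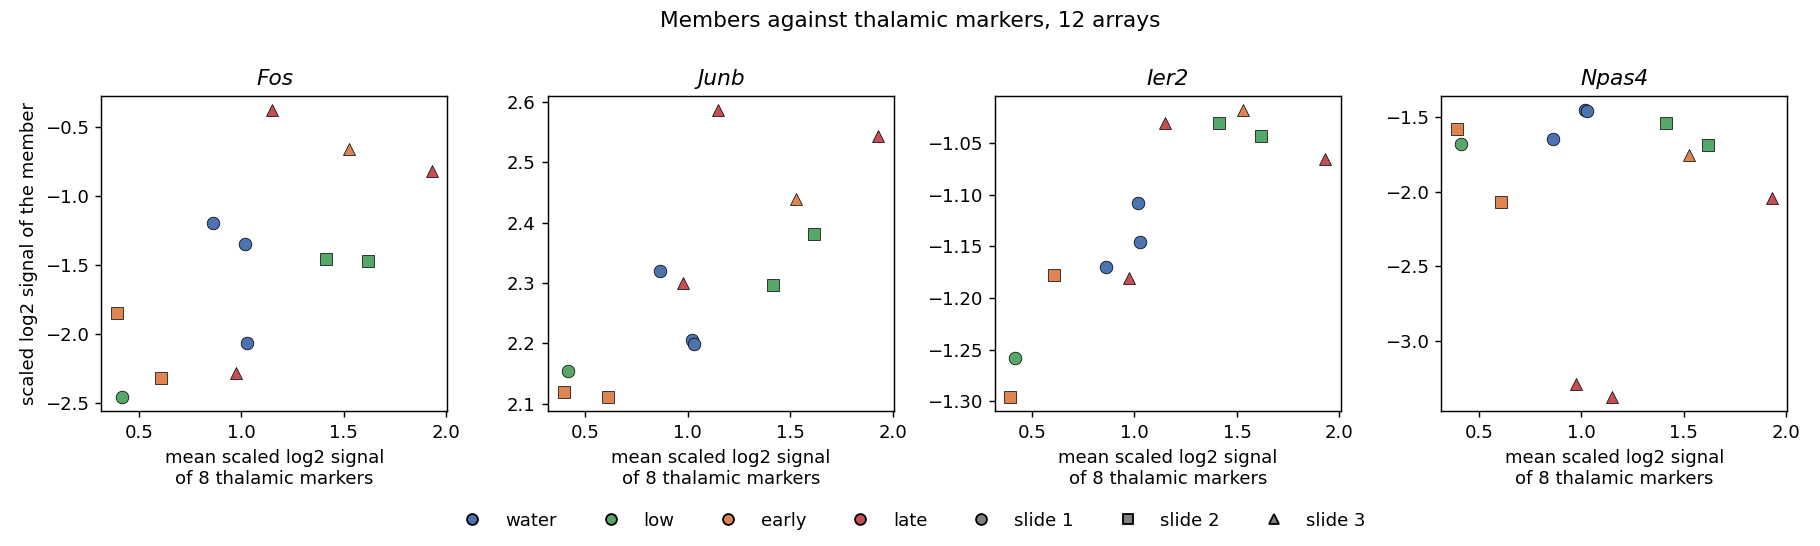
Scaled log2 signal of Fos, Junb, Ier2 and Npas4 against the mean scaled log2 signal of 8 thalamic markers on the 12 arrays, with color for the group and marker shape for the slide. Pearson r along the axis is 0.87 for Ier2, 0.78 for Junb, 0.65 for Fos and -0.05 for Npas4.

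With the other marker lists, 0 of the 10 members passed the adjusted threshold: cortex and hippocampus, striatum, anterior pituitary, choroid plexus, blood cells, endothelium and mural cells, microglia, white matter and the hypothalamus itself. Some relations were nevertheless as close as that of Junb with the thalamic list. Striatal markers had r = 0.77 with Fosb (permutation p = 0.00222, adjusted 0.0942; rho = 0.84, permutation p = 0.00138), 0.71 without the 2 arrays farthest from the Fosb median and -0.16 with slide means taken out, and r = -0.75 with Dusp1 (permutation p = 0.00406, adjusted 0.0942; rho = -0.66, permutation p = 0.0247), which became 0.33 with slide means taken out. Blood cell markers summed to 120.5 to 148 in water, 96.5 to 148 in low, 104.8 to 132 in early and 74.7 to 102 in late pools, in units of the 75th percentile. These markers had late and water pools, which shared no slide, apart, as 26% of all probes did. Their r was 0.74 with Npas4 (permutation p = 0.00790, adjusted 0.132; rho = 0.50, permutation p = 0.0993) and 0.71 with Fosb (permutation p = 0.00960, adjusted 0.137; rho = 0.44, permutation p = 0.157), the members lowest in late pools. Without the 2 arrays farthest from the member's median these became 0.42 and 0.45, and with slide means taken out 0.56 and 0.57. Hypothalamic markers had r = -0.66 with Npas4 (permutation p = 0.0128, adjusted 0.144) and rho = -0.37 (permutation p = 0.238). This r was -0.07 without the 2 arrays farthest from the Npas4 median, and -0.78 with slide means taken out (permutation p = 0.0741). With Fos, Junb, Egr1, Egr2, Nr4a1, Ier2 and Dusp1 the r of blood markers was between -0.38 and 0.22, that of striatal markers between -0.75 and -0.07 and that of hypothalamic markers between -0.53 and -0.20. With slide means taken out the striatal range turned sign, to 0.20 to 0.40. The blood range, which had lain on both sides of 0, became 0.29 to 0.68, and the hypothalamic range became -0.72 to -0.51. The part of blood, striatal tissue or the share of hypothalamus in the Npas4 and Fosb differences was not tested.

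Among the 10 genes most like the mean of the standardized members over the 12 arrays were Shank3 (r = 0.91), Gpr4 (0.89), Nin (0.89), Wnt9a (0.88), Pkp2 (0.88), the unnamed transcript AK042768 (0.86), Ric1 (0.86), Kitl (0.86) and the thalamic marker Prkcd (0.85). They were taken from 17796 genes whose probe was well above background on every array, of which 1% had an r over 0.73. Shank3 encodes a scaffold of excitatory synapses, Gpr4 a proton-sensing receptor of blood vessels and Kitl the ligand of the Kit receptor. None of the genes named here passed the test of alcohol minus water (limma adjusted p of 0.842 or more).

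Among 32 other immediate early genes, 30 were matched and tested, and 0 passed an adjusted p of 0.05 in any of the 6 comparisons. In alcohol minus water 24 of 30 had a difference above 0 and the median was 0.06, against 0.03 over all probes, and 1 of 30 passed an unadjusted p of 0.05 against 5.53% of all probes. That gene was Nr4a2, a relative of Nr4a1 needed by dopamine neurons, with 0.23 (SE 0.09, limma adjusted p = 0.819). Its scaled log2 signals were 0.88, 1.05 and 0.90 in water, 0.95, 1.08 and 1.21 in low, 1.05, 1.11 and 1.27 in early and 1.47, 1.24 and 1.14 in late pools. The late pools were all above the water pools, with which they shared no slide, and 26% of all probes had these groups apart. Low pool 1 and early pool 1 overlapped with the water pools. The highest difference was that of Fosl1 (0.60, SE 0.33), an AP-1 subunit well above background on 3 arrays, and the lowest that of Sik1 (-0.15, SE 0.08), a kinase that restrains CREB targets. At an unadjusted p of 0.05 the other comparisons gave 1 of 30 in low minus water (Fosl1, 0.92), 0 in early minus water, 2 in late minus water (Nr4a2, 0.34, and Jun, 0.17), 2 in high minus low (Csrnp1, -0.31, and Gadd45b, 0.24) and 2 in late minus early (Jund, -0.34, and Dusp6, 0.32). Over all probes these shares were 9.15%, 4.8%, 15.7%, 15.5% and 12.1%, so that no count stood above them. Jun, Jund, Csrnp1, Gadd45b and Dusp6 were named after their values were seen.

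Of 18 genes induced later by neuronal activity, 16 were tested and 0 passed the adjusted threshold in any comparison. Ptgs2, the inducible cyclooxygenase, had the highest alcohol minus water difference (0.72, SE 0.26, limma adjusted p = 0.819), but was well above background on 3 arrays, and Rheb, a small GTPase of the mTOR pathway, had the lowest (-0.12, SE 0.06). In late minus water 4 of 16 passed an unadjusted p of 0.05, where 15.7% of all probes did: Plk2 (0.30), Plk3 (0.26) and Rasd1 (0.54) were higher and Rheb (-0.18) was lower, with adjusted p of 0.134 or more. In late minus early 3 of 16 passed (12.1% of all probes), Plk2 (0.31), Plk3 (0.19) and Rasd1 (0.47), in low minus water 1 (Ptgs2, 0.98), and 0 in early minus water and in high minus low. Plk2, Plk3 and Rasd1 were named after their values were seen.

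For the 20 of 22 upstream kinases and factors that were tested, 0 passed the adjusted threshold in any comparison, and at an unadjusted p of 0.05 there were 0 in alcohol minus water and in low minus water, 2 in early minus water (4.8% of all probes), 3 in late minus water (15.7%), 5 in high minus low (15.5%) and 2 in late minus early (12.1%). The 5 in high minus low, named after their values were seen, were Crebbp (0.18) and Map2k2 (0.14), which were higher, and Rps6ka1 (-0.31), Rps6ka3 (-0.16) and Elk3 (-0.11), which were lower. Rps6ka1 (-0.38), Crebbp (0.21) and Elk3 (-0.14) also made up the 3 in late minus water, Map2k2 (0.21) and Rps6ka1 (-0.22) the 2 in early minus water, and Mapk3 (-0.19) and Crebbp (0.17) the 2 in late minus early. Map2k2, the kinase above ERK, had the highest alcohol minus water difference of the list (0.13, SE 0.07) and Mkl2, a cofactor of serum response factor, the lowest (-0.31, SE 0.20). Of 13 genes that answer to glucocorticoids, 12 were tested and 0 passed after adjustment in any comparison. Tsc22d3, the glucocorticoid-induced leucine zipper gene, had the highest alcohol minus water difference, 0.34 (SE 0.12, unadjusted p = 0.0145, limma adjusted p = 0.819), and in late minus water it was 0.50 (SE 0.12, adjusted p = 0.129). It was also the 1 gene of this list with an unadjusted p under 0.05 in low minus water (0.34), in late minus water and in late minus early (0.31), where 9.15%, 15.7% and 12.1% of all probes passed. Cdkn1a was lowest, at -0.03 (SE 0.13).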

How the data were processed

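Hypothalamic RNA of 12 pools was labeled with Cy3 and hybridized to Agilent 4 x 44K mouse arrays. The authors deposited scanner output of Feature Extraction 10.5.1.1, in which the intensity of a spot is linear, background-subtracted and detrended within its array but not scaled to other arrays, and a table with the same intensity values per probe. The log2 of each intensity was centered on its array's 75th percentile (43379 spots, controls left out). Non-uniform outlier spots and spots under 2 in signal over error became missing, and spots of 1 probe were averaged. A probe was tested if it had values on more than 50% of the arrays of each group compared. Gene names came from the array files and, for 25097 of 41174 probes with a matching accession, from the GRCm38.p6 gene table. Probe positions are those of mm9 in the array files.

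Tests used limma 3.58.1 under R 4.3.3 (lmFit, eBayes, Benjamini-Hochberg over all probes), with 9 alcohol against 3 water arrays in 1 fit and the other contrasts in a fit of 4 groups. Exact permutation tests ran over 220, 84 or 20 ways to pick arrays, and 20 ways give no p below 0.1. Correlations used 100000 permutations (numpy 2.4.6). The members and gene lists were chosen with earlier results of these data known. Named beyond the members were, per list, the genes with the highest and lowest alcohol minus water difference and any past an unadjusted p of 0.05 there, the 10 genes closest to the mean of the members, and markers that moved with a member. Genes named outside this rule are said to be so. One of the 10 closest genes is not reported here. Alternatives covered the background correction, scaling, the authors' table, filters, slide, scan day, replicate number, choice of probe, each array left out and the methods' t-test. In simulated arrays with 200 probes moved by 1 on the log2 scale, 156 were called for alcohol minus water (32376 probes tested, 12 unmoved probes called) and 151 for late minus water (32491 tested). The simulated arrays held no slide effect and the moved probes were picked at random. These counts therefore do not give the recovery for members of wide spread such as Fos and Npas4.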

Additional observations from a re-analysis of the deposited data

Results flagged for a closer look

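Fosb had its 3 low pools above the water mean and its 3 late pools below it on the log2 scale. The late minus water difference less the low minus water difference was -0.75, the only such case among 30 pairs of drinker groups by member. This difference was not tested. Low and late pools shared no slide. With slide as a block the Fosb difference from water was -0.04 for late and 0.11 for low drinkers. Within slide 1 low pool 1 was 0.11 above the water mean, and low pools 2 and 3 and the late pools shared no slide with water. The gap of the highest or lowest array to its neighbor was looked at in 20 groups of 6 or 9 arrays, and 0 passed the critical value (0.625 and 0.493 of the range).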

How the results depend on the processing

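Members past an adjusted p of 0.05 numbered 0 in the 6 comparisons under the alternatives run, except with late pool 3 left out. With 1 array left out at a time the count ran from 0 to 1 in late minus water, in high minus low and in late minus early, and the 1 was Npas4 without late pool 3, when 403, 160 and 103 of all probes were called against 0, 24 and 0. Of the 45 member pairs, 13 passed as reported, 25 with no scaling between arrays, 3 with slide means taken out, 2 with group means taken out, and 12 to 16 with 1 array left out. Same-numbered arrays did not pair: 3 of 18 such pairs had deviations correlated over 0.1 (-0.09 to 0.18), and 5 of 12 arrays went best with their own number. With the replicate number as a block, 0 members were called, 0 of 60 differences changed sign, 8 passed an unadjusted p of 0.05 against 5 without it, and 6 pairs of members passed. Of the 60 differences, 31 changed sign with slide as a fixed block (the largest 0.45 as reported), 15 with scan day as a block (0.37, Fos in late minus water) and 10 with quantile normalization (0.28). Scaling to the median moved the median of all probes in low minus water from 0.04 to -0.10. The cause of these shifts was not tested. With 3 arrays in a group, and Egr2 not well above background on 1 array, small differences were not detectable.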
